A study of Mus musculus with 21 samples.

Results

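Interferon-stimulated genes were followed across 11 RNA-seq libraries of c-kit+ cells from mouse bone marrow. The set was a named list of 33 genes, found in the deposited count table by gene symbol, and all 33 were present among its 54532 genes. Every member passed the filter on low counts, which left 16262 genes, so none is missing from the tests. Membership rests on the gene names, and the list was chosen with earlier results of these data known.

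All mice were of the C57BL/6 strain. WT (n = 3) carried neither lesion, Asxl1-/- (n = 2) lacked the chromatin regulator Asxl1, Jak2V617F (n = 3) carried the activated form of the Jak2 kinase that drives myeloproliferative neoplasms, and Asxl1-/-Jak2V617F (n = 3) carried both. Marrow cells were bound to CD117 magnetic beads, so each library is a mixture of stem and progenitor cells and of any other cell that the beads held. The labels give no age, no sex, no Cre driver or promoter for either allele, and do not say whether replicates were separate animals. The p-values therefore measure the spread between these libraries, which may be partly technical.

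Total counts were 16198011 to 19196283 per library. Kit, which encodes the receptor used for enrichment, lay between 219 and 338 CPM (read counts scaled by library size and a TMM factor) in every library. Asxl1 was at 89.0 to 100.4 CPM in the 5 libraries labelled Asxl1-/- or Asxl1-/-Jak2V617F and at 132 to 196 CPM in the other 6, so the labels and the gene count went the same way. Both Asxl1-/- libraries and Jak2V617F 2 held Y-linked reads and the other 8 did not, so sex and Asxl1 loss in the WT background cannot be told apart. The Jak2V617F libraries stood apart in cell type markers: conventional dendritic cell and erythroid genes were high and monocyte and neutrophil granule genes low.

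Type I interferons bind the receptor chains Ifnar1 and Ifnar2, whose kinases Tyk2 and Jak1 phosphorylate Stat2. Stat2 and Irf9 are subunits of the factor ISGF3, which binds the interferon-stimulated response element (ISRE) in the promoters of antiviral genes, while interferon-gamma acts through Jak1 and Jak2 on genes with gamma-activated sequences (GAS). The induced proteins include sensors of viral nucleic acid, IFIT proteins that bind foreign RNA, oligoadenylate synthetases that switch on RNase L, the ubiquitin-like Isg15 and GTPases that attack the vacuoles of intracellular microbes. In blood stem and progenitor cells these genes are known to be switched on by interferon and, in part, to be expressed without it.

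The letters that ISGF3 is known to bind were searched in the members' promoters. RefSeq promoter windows (build GRCm38.p6, 250 bases before to 50 after the start) matched 26 of the 33 members, and Dhx58, Zbp1, Oas2, Usp18, Mx1, Parp14 and Rtp4 had no entry. The ISRE core was read as TTTC, any 2 bases and TTTC again and searched on both strands (on the other strand it reads GAAA, any 2 bases and GAAA). It was found in 18 of the 26, against 3.99% of all 27025 genes with a window (3.44% of all 32851 windows). It lay before the start in 16 members and only after it in Ddx58 and Ifih1, and 7 members had more than 1 core before the start, some of them overlapping. The GAS core TTCNNNGAA, which reads the same on both strands, was found in 6 of the 26 (Ifit2, Oas1a, Bst2, Igtp, Irgm2 and Gbp7). Of all genes with a window 9.55% had it (8.3% of all windows).

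The 12 stretches here, shown because they carry the core, are each read 5′ to 3′ on the strand of its gene, with the ISRE cores in capitals and the rest in lower case. The first 9 belong to genes that were lower in Jak2V617F than in WT, and the last 3 to genes that did not pass that test, so that both kinds can be compared.
Stat2, chr10:128270256-128270305, plus strand: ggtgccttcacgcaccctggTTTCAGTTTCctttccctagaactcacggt
Ifit1, chr19:34640765-34640833, plus strand: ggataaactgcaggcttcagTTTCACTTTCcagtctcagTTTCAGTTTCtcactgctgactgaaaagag
Ifit3, chr19:34583353-34583436, plus strand: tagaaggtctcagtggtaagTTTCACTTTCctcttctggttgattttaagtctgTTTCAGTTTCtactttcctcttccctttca
Oas1a, chr5:120907526-120907565, minus strand: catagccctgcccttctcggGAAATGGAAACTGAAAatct
Oas3, chr5:120777705-120777754, minus strand: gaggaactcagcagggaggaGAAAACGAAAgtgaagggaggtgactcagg
Trim30a, chr7:104465200-104465249, minus strand: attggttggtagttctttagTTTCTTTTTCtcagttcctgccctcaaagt
Gbp3, chr3:142559979-142560025, plus strand: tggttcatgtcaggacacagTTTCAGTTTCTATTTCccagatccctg
Igtp, chr11:58199502-58199551, plus strand: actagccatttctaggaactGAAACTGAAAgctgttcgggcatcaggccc
Irgm2, chr11:58214893-58214942, plus strand: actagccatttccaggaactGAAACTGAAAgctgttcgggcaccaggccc
Isg15, chr4:156200855-156200916, minus strand: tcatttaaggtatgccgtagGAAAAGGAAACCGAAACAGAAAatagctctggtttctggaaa
Bst2, chr8:71537567-71537622, minus strand: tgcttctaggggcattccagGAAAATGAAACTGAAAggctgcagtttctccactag
Gbp7, chr3:142530263-142530312, plus strand: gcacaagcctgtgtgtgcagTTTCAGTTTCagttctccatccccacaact
Ifit1 and Ifit3 carry a pair of separate cores in the same orientation. In Oas1a, Isg15, Bst2 and Gbp3 the cores overlap, and Isg15 has 3 in a row. The stretches of the neighbouring GTPase genes Igtp and Irgm2 were identical at 48 of 50 bases. The Irgm2 stretch lies before the RefSeq start but inside the longer Irgm2 gene of the deposited table. Of the 18 members with a core, 11 were lower in Jak2V617F than in WT, as were 5 of the 8 without a core and 4 of the 7 with no window. A match is a stretch of letters, and no binding was measured here.

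Across the 33 genes, the libraries did not sort by genotype alone. Each gene's log2(CPM + 1) was set against its mean over the 11 libraries, and the median of these deviations over the members was taken per library. It was highest in WT 3 (1.56), followed by Asxl1-/- 2 (1.02) and Asxl1-/- 1 (0.65). The remaining WT libraries (-0.11 and -0.08) lay among the Asxl1-/-Jak2V617F libraries (-0.60, 0.13 and -0.14), and the Jak2V617F libraries were at -1.33, -0.58 and -0.71.

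WT 3 was the highest of the 3 WT libraries for all 33 members, against 27.8% of all genes tested, and the highest of all 11 libraries for 30 members, against 8.95%. For 26 members it was at least 2-fold above both WT 1 and WT 2, against 2.07% of all genes. Set against the mean of WT 1 and WT 2, WT 3 was 1.21 times as high for Gbp3 and 10.2 times as high for Ifit1, with a member median of 3.04 and an all-gene median of 0.992. The excess in WT 3 was unequal between roles, at 1.21 to 2.82 times for the 7 GTPase genes and 3.04 to 7.32 times for the 5 OAS family genes. The summed level of 10 macrophage markers was also highest in WT 3 among the WT libraries, at 1282 CPM against 615 and 582, and its part in the result was not tested. Counts and many of the values are also given without WT 3.

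Other libraries also stood out within their group. Asxl1-/- 2 was above Asxl1-/- 1 for all 33 members, against 50.7% of all genes. Jak2V617F 1 was the lowest of its group for 28 members, against 31.6%, and Asxl1-/-Jak2V617F 1 for 25, against 33.1%.

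**Figure D1:**
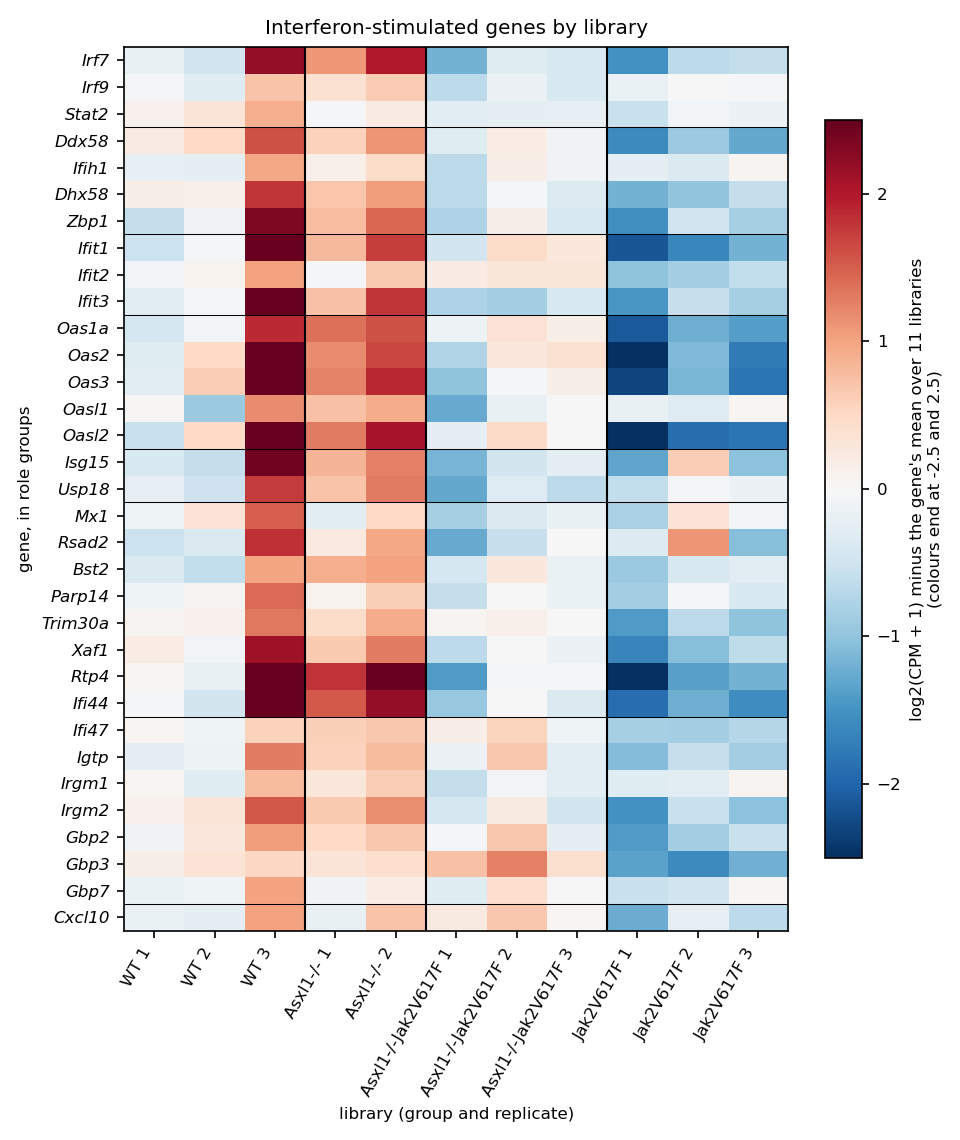
Level of the 33 interferon-stimulated genes (vertical axis, ordered by role) in the 11 libraries (horizontal axis), coloured by log2(CPM + 1) relative to the gene's mean over all libraries, with colours ending at -2.5 and 2.5. WT 3 is the highest of the WT libraries for all 33 genes, and for 14 genes the Jak2V617F libraries are the 3 lowest of the 11.

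Cells with the activated kinase alone were first set against WT. By edgeR's quasi-likelihood test, 20 of the 33 genes were lower in Jak2V617F and 0 higher, while 29.2% of all genes were lower and 24.4% higher. The median log2 fold change was -1.65 over the members and -0.05 over all genes. For 20 members every Jak2V617F library lay below every WT library, against 33.3% of all genes, and for 14 members they lay below all 8 other libraries, against 21.6%. Without WT 3, 16 of the 20 remained lower (26.3% of all genes were) and the member median was -0.87. In these bulk libraries fewer cells of a type and less RNA per cell cannot be told apart.

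Adding loss of Asxl1 to the activated kinase was the second comparison. It uses the same Jak2V617F libraries, so its values are not independent of those above. In Asxl1-/-Jak2V617F against Jak2V617F, 7 members were higher (Ddx58, Ifit2, Oas1a, Trim30a, Ifi47, Gbp2 and Gbp3) and 0 lower, while 24.5% of all genes were higher and 19.8% lower. The 7 of 33 members are no larger a share than that of all genes. The member median was 0.86 and the all-gene median -0.01. For 15 members every Asxl1-/-Jak2V617F library was above every Jak2V617F library, against 28.4%. Without WT 3, whose spread enters the shared error of the fit, 17 members passed, against 24.1% of all genes. The 10 added were Dhx58, Ifit1, Oas2, Oas3, Oasl2, Xaf1, Ifi44, Igtp, Irgm2 and Cxcl10.

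**Figure D2:**
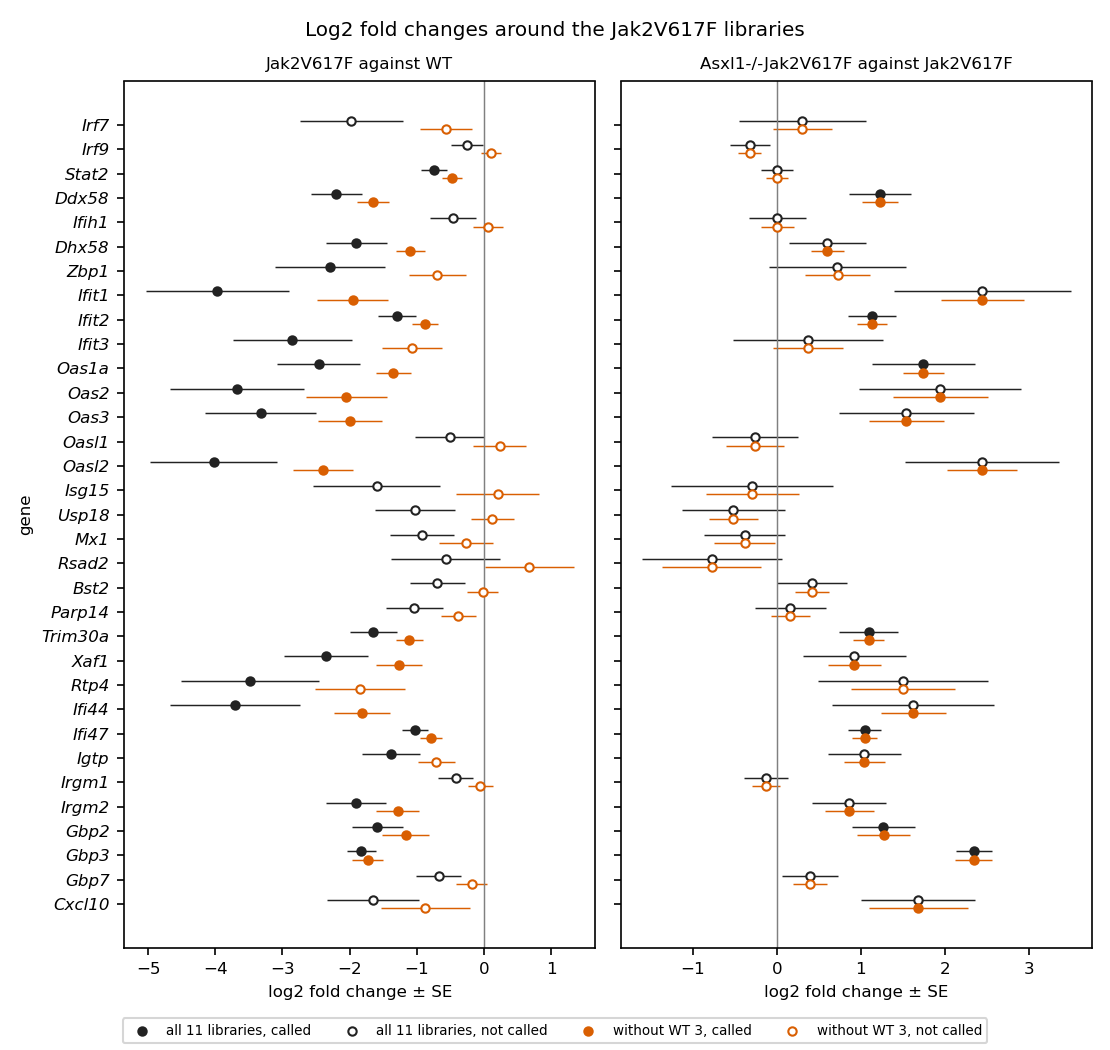
Log2 fold change ± SE (horizontal axes) of the 33 genes (vertical axis) in Jak2V617F against WT, left, and in Asxl1-/-Jak2V617F against Jak2V617F, right. Black points come from all 11 libraries and orange points from the fit without WT 3, filled where the gene passed: 20 and 16 genes on the left, 7 and 17 on the right.

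Of the 3 transcription factors of the response, 1 fell in Jak2V617F against WT. That is close to the 29.2% of all genes, against which the count of every role that follows is also to be read. Stat2, the ISGF3 subunit that carries the transactivation domain (mm10; ENSMUSG00000040033, chromosome 10, 128270559 to 128292849), was at 54.2, 62.3 and 94.1 CPM in WT, 48.3 and 57.9 in Asxl1-/-, 41.1, 42.1 and 43.1 in Asxl1-/-Jak2V617F and 33.8, 47.5 and 44.9 in Jak2V617F. All 3 Jak2V617F libraries were below the WT and Asxl1-/- libraries but overlapped Asxl1-/-Jak2V617F. Stat2 fell in Jak2V617F against WT (-0.74 ± 0.19, adjusted p = 0.00732; -0.47 ± 0.15 without WT 3) and did not pass in Asxl1-/-Jak2V617F against Jak2V617F (0.00 ± 0.19, adjusted p = 0.999).

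Irf7, the factor that amplifies type I interferon production (ENSMUSG00000025498, chromosome 7, 141262706 to 141266481), was at 24.9, 19.9 and 134 CPM in WT, 61.1 and 116 in Asxl1-/-, 11.9, 22.7 and 21.7 in Asxl1-/-Jak2V617F and 9.34, 17.8 and 18.4 in Jak2V617F. WT 3 and both Asxl1-/- libraries were high, and the remaining 8 libraries lay between 9.34 and 24.9 CPM. The difference between Jak2V617F and WT did not pass (-1.97 ± 0.76, adjusted p = 0.0588; -0.56 ± 0.39 without WT 3), and no Jak2V617F library reached the lowest WT library. Irf9, the DNA-binding subunit of ISGF3 (ENSMUSG00000002325, chromosome 14, 55603571 to 55610030), was at 80.1, 67.4 and 137 CPM in WT, 108 and 129 in Asxl1-/-, 52.1, 75.0 and 63.6 in Asxl1-/-Jak2V617F and 73.6, 83.8 and 80.8 in Jak2V617F. Its Jak2V617F and WT values overlapped (-0.26 ± 0.24, adjusted p = 0.389; 0.10 ± 0.15 without WT 3).

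Of the 4 sensors of viral nucleic acid, 3 fell in Jak2V617F against WT. Ddx58, which encodes the RNA sensor RIG-I (ENSMUSG00000040296, chromosome 4, 40203773 to 40239828), was at 38.8, 48.0 and 103 CPM in WT, 50.9 and 73.4 in Asxl1-/-, 27.1, 38.4 and 31.5 in Asxl1-/-Jak2V617F and 10.6, 17.6 and 13.2 in Jak2V617F. The Jak2V617F libraries were the 3 lowest, and the Asxl1-/-Jak2V617F libraries lay between them and WT without overlap on either side. Ddx58 fell in Jak2V617F against WT (-2.20 ± 0.38, adjusted p = 0.000924) and was higher in Asxl1-/-Jak2V617F than in Jak2V617F (1.23 ± 0.37, adjusted p = 0.0237). This second call did not hold without Asxl1-/-Jak2V617F 2 (adjusted p = 0.0712), Asxl1-/-Jak2V617F 3 (0.0519), Jak2V617F 1 (0.0821) or Jak2V617F 3 (0.0682), nor with no filter.

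Dhx58, the RIG-I-like regulator LGP2 (ENSMUSG00000017830, chromosome 11, 100694884 to 100704271), was at 26.3, 25.9 and 84.5 CPM in WT, 39.0 and 50.0 in Asxl1-/-, 14.5, 22.7 and 18.5 in Asxl1-/-Jak2V617F and 9.93, 11.4 and 15.4 in Jak2V617F. Jak2V617F was below every WT and Asxl1-/- library and overlapped Asxl1-/-Jak2V617F. Dhx58 fell in Jak2V617F against WT (-1.90 ± 0.46, adjusted p = 0.007; -1.10 ± 0.22 without WT 3), and its difference between both Jak2V617F genotypes did not pass (0.60 ± 0.46, adjusted p = 0.319) until WT 3 was left out (adjusted p = 0.0323). Zbp1, a sensor of Z-form nucleic acid that triggers necroptosis (ENSMUSG00000027514, chromosome 2, 173206612 to 173218923), was at 4.92, 7.44 and 44.2 CPM in WT, 14.4 and 23.1 in Asxl1-/-, 4.21, 8.92 and 5.80 in Asxl1-/-Jak2V617F and 2.09, 5.35 and 4.01 in Jak2V617F. Its call in Jak2V617F against WT (-2.30 ± 0.82, adjusted p = 0.0416; -0.69 ± 0.42 without WT 3) was lost in 11 of 18 alternatives, the most of the 20, and the highest Jak2V617F library passed the lowest WT library. It did not hold without WT 3 (adjusted p = 0.205), and also without each of Jak2V617F 1 (0.122), Jak2V617F 2 (0.0707), Jak2V617F 3 (0.0992), Asxl1-/-Jak2V617F 1 (0.0565) or Asxl1-/-Jak2V617F 3 (0.0625). Nor did it hold without either Asxl1-/- library, which leaves 1 in that group. The Zbp1 call was also lost with no filter, with the compared groups alone and with a sex term. Ifih1, which encodes the long-RNA sensor MDA5, did not pass (-0.46 ± 0.34, adjusted p = 0.291; 0.07 ± 0.22 without WT 3).

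All 3 IFIT genes, of a family that includes binders of RNA without host cap marks, fell in Jak2V617F against WT. Ifit1 (ENSMUSG00000034459, chromosome 19, 34640871 to 34650009) was at 3.30, 5.02 and 42.3 CPM in WT, 9.92 and 19.8 in Asxl1-/-, 3.48, 7.55 and 6.47 in Asxl1-/-Jak2V617F and 0.429, 1.03 and 1.74 in Jak2V617F. Jak2V617F held the 3 lowest values, WT 3 the highest, and Asxl1-/-Jak2V617F lay in the range of WT 1 and WT 2 or slightly above. Ifit1 fell by 3.97 ± 1.07 on the log2 scale in Jak2V617F against WT (adjusted p = 0.013), and by 1.96 ± 0.53 without WT 3. In Asxl1-/-Jak2V617F against Jak2V617F it was 2.44 ± 1.05 (adjusted p = 0.0932), which passed without WT 3 (adjusted p = 0.00281).

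Ifit2 (ENSMUSG00000045932, chromosome 19, 34550694 to 34576419) was at 27, 30.4 and 58.3 CPM in WT, 27.8 and 45.2 in Asxl1-/-, 32.9, 35.2 and 35.0 in Asxl1-/-Jak2V617F and 13.5, 15.3 and 18.1 in Jak2V617F. It had the same order with far less spread: every Jak2V617F value was under those of the other genotypes, and the 3 Asxl1-/-Jak2V617F values were nearly equal. Ifit2 fell in Jak2V617F against WT (-1.30 ± 0.28, adjusted p = 0.00308) and was higher in Asxl1-/-Jak2V617F than in Jak2V617F (1.14 ± 0.28, adjusted p = 0.00839). Ifit3 (ENSMUSG00000074896, chromosome 19, 34583531 to 34588731) was at 3.30, 4.00 and 30.7 CPM in WT, 7.53 and 16.8 in Asxl1-/-, 2.02, 1.83 and 2.93 in Asxl1-/-Jak2V617F and 0.859, 2.45 and 1.90 in Jak2V617F. Here both Jak2V617F genotypes were low and overlapped each other, and both lay below all WT and Asxl1-/- libraries. It fell in Jak2V617F against WT (-2.85 ± 0.88, adjusted p = 0.0225; -1.07 ± 0.45 without WT 3), which did not hold without WT 3 (adjusted p = 0.0734), Jak2V617F 1 (0.0751) or Jak2V617F 3 (0.0631), and between both Jak2V617F genotypes it was 0.37 ± 0.90 (adjusted p = 0.769). The Ifit3 call against WT was also lost with no filter and with the compared groups alone.

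The OAS family holds synthetases of the oligoadenylate that activates RNase L and proteins related to them. In Jak2V617F against WT, 4 of its 5 members fell. Oasl2 (ENSMUSG00000029561, chromosome 5, 114896936 to 114912234) was at 14.0, 30.4 and 163 CPM in WT, 53.4 and 92.1 in Asxl1-/-, 17.7, 29.8 and 21.4 in Asxl1-/-Jak2V617F and 2.36, 5.0 and 5.27 in Jak2V617F. The groups were ordered with Jak2V617F lowest and Asxl1-/- highest apart from WT 3, and Jak2V617F overlapped no other group. Oasl2 fell in Jak2V617F against WT (-4.03 ± 0.94, adjusted p = 0.00751; -2.40 ± 0.44 without WT 3). Its difference between both Jak2V617F genotypes was 2.44 ± 0.91 (adjusted p = 0.0612), which passed without WT 3 (adjusted p = 0.00157).

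Oas1a, a catalytic synthetase (ENSMUSG00000052776, chromosome 5, 120896256 to 120907521), was at 21.6, 28.1 and 111 CPM in WT, 78.3 and 91.3 in Asxl1-/-, 27.1, 38.3 and 32.8 in Asxl1-/-Jak2V617F and 6.17, 12.2 and 10.9 in Jak2V617F. Jak2V617F was again lowest with no overlap, and both Asxl1-/- libraries were above WT 1 and WT 2 by more than 2-fold. Oas1a fell in Jak2V617F against WT (-2.46 ± 0.62, adjusted p = 0.00963; -1.35 ± 0.26 without WT 3) and was higher in Asxl1-/-Jak2V617F than in Jak2V617F (1.74 ± 0.61, adjusted p = 0.047). That last value was close to the threshold and its call was lost in 11 of 18 alternatives. It did not hold without any 1 of the Asxl1-/-Jak2V617F (adjusted p = 0.0781, 0.108 and 0.0921) or Jak2V617F (0.134, 0.081 and 0.0956) libraries. Nor did it hold without either Asxl1-/- library, which leaves 1 in that group. Median-of-ratios scaling, no filter and a sex term each lost it as well.

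Oas3, the largest of the synthetases (ENSMUSG00000032661, chromosome 5, 120753098 to 120777661), was at 28.0, 53.1 and 226 CPM in WT, 83.1 and 131 in Asxl1-/-, 16.6, 34.0 and 38.5 in Asxl1-/-Jak2V617F and 6.28, 15.2 and 9.07 in Jak2V617F. Jak2V617F and Asxl1-/-Jak2V617F did not overlap, with a narrow gap between 15.2 and 16.6 CPM. It fell in Jak2V617F against WT (-3.33 ± 0.83, adjusted p = 0.0104; -1.99 ± 0.48 without WT 3), and its difference between both Jak2V617F genotypes did not pass (1.54 ± 0.80, adjusted p = 0.16) until WT 3 was left out (adjusted p = 0.0232). Oas2 fell as well (-3.68 ± 1.0, adjusted p = 0.0153; -2.05 ± 0.61 without WT 3). Oasl1, a repressor of Irf7 translation, did not pass (-0.51 ± 0.51, adjusted p = 0.426; 0.23 ± 0.39 without WT 3).

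Neither gene of the ISG15 system passed in Jak2V617F against WT. Isg15, the ubiquitin-like modifier (ENSMUSG00000035692, chromosome 4, 156199424 to 156200818), was at 7.16, 5.97 and 55.7 CPM in WT, 18.2 and 24.5 in Asxl1-/-, 3.70, 6.75 and 8.12 in Asxl1-/-Jak2V617F and 3.22, 15.3 and 4.22 in Jak2V617F. Jak2V617F 2 was above WT 1 and WT 2, so the groups overlapped (-1.59 ± 0.95, adjusted p = 0.191; 0.21 ± 0.62 without WT 3). Usp18, the protease that removes Isg15 and restrains the type I receptor (ENSMUSG00000030107, chromosome 6, 121245906 to 121270917), was at 10.5, 8.17 and 43.6 CPM in WT, 20.7 and 31.4 in Asxl1-/-, 4.43, 9.50 and 7.45 in Asxl1-/-Jak2V617F and 7.68, 12 and 10.9 in Jak2V617F. Its Jak2V617F values lay around those of WT 1 and WT 2 and mostly above Asxl1-/-Jak2V617F (-1.02 ± 0.60, adjusted p = 0.18; 0.12 ± 0.32 without WT 3).

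Among the 8 other antiviral effectors, 4 fell in Jak2V617F against WT. Trim30a, a TRIM protein that damps signalling to NF-kB (ENSMUSG00000030921, chromosome 7, 104409025 to 104465193), was at 63.1, 65.5 and 152 CPM in WT, 83.3 and 115 in Asxl1-/-, 63.3, 66.3 and 61.2 in Asxl1-/-Jak2V617F and 22, 38.0 and 29.4 in Jak2V617F. The Asxl1-/-Jak2V617F libraries were close to WT 1 and WT 2, and Jak2V617F was lowest with no overlap. Trim30a fell in Jak2V617F against WT (-1.65 ± 0.35, adjusted p = 0.00352) and was higher in Asxl1-/-Jak2V617F than in Jak2V617F (1.09 ± 0.35, adjusted p = 0.0309). This second call did not hold without Asxl1-/-Jak2V617F 1 (adjusted p = 0.0732), Asxl1-/-Jak2V617F 2 (0.0707), Asxl1-/-Jak2V617F 3 (0.0623), Jak2V617F 1 (0.0989) or Jak2V617F 3 (0.0802), nor with no filter.

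Ifi44, a cytoplasmic protein of the antiviral response (ENSMUSG00000028037, chromosome 3, 151730922 to 151749960), was at 5.59, 3.94 and 43.7 CPM in WT, 18.5 and 30.2 in Asxl1-/-, 2.53, 5.72 and 4.28 in Asxl1-/-Jak2V617F and 0.805, 1.91 and 1.32 in Jak2V617F. Jak2V617F was under all other libraries, and WT 3 was 9.16 times the mean of WT 1 and WT 2. It fell in Jak2V617F against WT (-3.70 ± 0.97, adjusted p = 0.0114; -1.82 ± 0.42 without WT 3). Xaf1, a pro-apoptotic antagonist of XIAP (ENSMUSG00000040483, chromosome 11, 72301629 to 72313733), was at 13.7, 11.4 and 54.8 CPM in WT, 19.3 and 30.1 in Asxl1-/-, 7.18, 11.7 and 10.7 in Asxl1-/-Jak2V617F and 3.11, 5.15 and 7.33 in Jak2V617F. Jak2V617F was below WT and Asxl1-/- and overlapped Asxl1-/-Jak2V617F at 7.33 and 7.18 CPM (-2.35 ± 0.62, adjusted p = 0.0107; -1.27 ± 0.34 without WT 3).

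Rtp4, a receptor-trafficking protein that restricts flaviviruses, ranged from 0.698 CPM in Jak2V617F 1 to 80.6 CPM in WT 3. It fell in Jak2V617F against WT (-3.49 ± 1.03, adjusted p = 0.0211; -1.85 ± 0.67 without WT 3), which did not hold without Jak2V617F 1 (adjusted p = 0.059), Jak2V617F 2 (0.0542) or WT 3 (0.0509). The Rtp4 call was also lost with the compared groups alone and with a sex term. The GTPase gene Mx1 (-0.93 ± 0.48), the radical enzyme viperin, Rsad2 (-0.57 ± 0.81), tetherin, Bst2 (-0.69 ± 0.41), and the ADP-ribosyltransferase Parp14 (-1.04 ± 0.42) did not pass, with adjusted p from 0.0678 to 0.584. Without WT 3 Mx1 was -0.27 ± 0.40, Rsad2 0.68 ± 0.66, Bst2 -0.02 ± 0.23 and Parp14 -0.38 ± 0.26, and none passed. Bst2 had the highest level of the 33 per kilobase of gene length, at a mean of 73.2 CPM per kb over the 11 libraries.

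**Figure D3:**
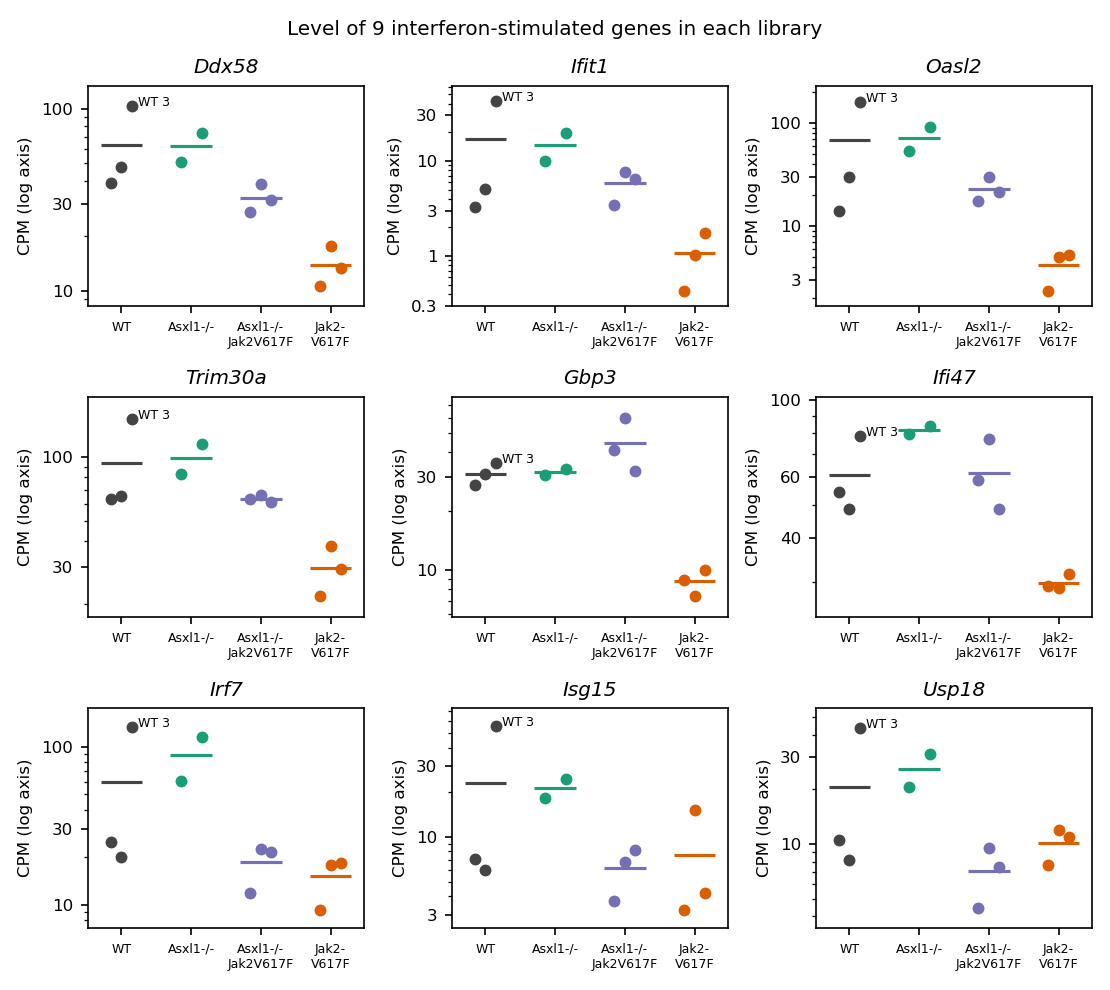
CPM on a log axis in each of the 11 libraries for 9 of the genes, with 1 point per library and a bar at the group mean, and WT 3 named. Jak2V617F lies below all other libraries for Ddx58, Ifit1, Oasl2, Trim30a, Gbp3 and Ifi47 and overlaps other groups for Irf7, Isg15 and Usp18.

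The immunity-related and guanylate-binding GTPases, which disrupt the vacuoles of intracellular microbes, had 7 members here, of which 5 fell in Jak2V617F against WT. Gbp3 (ENSMUSG00000028268, chromosome 3, 142560026 to 142573209) was at 27.2, 31.1 and 35.3 CPM in WT, 30.6 and 32.8 in Asxl1-/-, 41.3, 60.1 and 32.3 in Asxl1-/-Jak2V617F and 8.96, 7.36 and 10.1 in Jak2V617F. WT and Asxl1-/- overlapped, with WT 3 close to the others, Jak2V617F was lower with no overlap, and 2 of the 3 Asxl1-/-Jak2V617F libraries were above every library of the other genotypes. Gbp3 had the smallest adjusted p of the 33 in Jak2V617F against WT (-1.83 ± 0.21, adjusted p = 3.16e-05) and in Asxl1-/-Jak2V617F against Jak2V617F (2.34 ± 0.21, adjusted p = 7.1e-06).

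Ifi47, the GTPase Irg47 (ENSMUSG00000078920, chromosome 11, 49076587 to 49096974), was at 54.4, 48.5 and 78.8 CPM in WT, 79.5 and 83.8 in Asxl1-/-, 58.7, 77.3 and 48.7 in Asxl1-/-Jak2V617F and 29.1, 28.8 and 31.6 in Jak2V617F. Its 3 Jak2V617F values were within 3 CPM of each other and below all 8 other libraries, both Asxl1-/- libraries were the highest of the 11, and WT and Asxl1-/-Jak2V617F overlapped. It fell in Jak2V617F against WT (-1.02 ± 0.19, adjusted p = 0.00105) and was higher in Asxl1-/-Jak2V617F than in Jak2V617F (1.04 ± 0.19, adjusted p = 0.00124). Gbp2 (ENSMUSG00000028270, chromosome 3, 142620602 to 142638008) was at 8.06, 10.5 and 18.8 CPM in WT, 12.5 and 14.3 in Asxl1-/-, 8.42, 14.2 and 7.21 in Asxl1-/-Jak2V617F and 2.58, 4.27 and 5.54 in Jak2V617F. Jak2V617F was lowest with no overlap and Asxl1-/-Jak2V617F 2 was the highest of its group. Gbp2 fell in Jak2V617F against WT (-1.59 ± 0.38, adjusted p = 0.00438) and was higher in Asxl1-/-Jak2V617F than in Jak2V617F (1.27 ± 0.38, adjusted p = 0.0182), and the second of these did not hold without Asxl1-/-Jak2V617F 2 (adjusted p = 0.0818), Jak2V617F 1 (0.0662) or Jak2V617F 2 (0.0509).

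Irgm2 (-1.90 ± 0.44, adjusted p = 0.00545) and Igtp, the regulatory GTPase Irgm3 (-1.39 ± 0.43, adjusted p = 0.0226; -0.71 ± 0.27 without WT 3), also fell in Jak2V617F against WT, and Irgm1 (-0.42 ± 0.26; -0.05 ± 0.19 without WT 3) and Gbp7 (-0.67 ± 0.34; -0.18 ± 0.23 without WT 3) did not pass. The Igtp result did not hold without Jak2V617F 1 (adjusted p = 0.0769), Jak2V617F 3 (0.0662) or WT 3 (0.0545), nor with no filter. The gene models of Igtp and Irgm2 overlap in the deposited table, so reads there may be split or dropped and their counts are uncertain, as are those of the closely related Gbp genes.

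Cxcl10, the chemokine that attracts T cells through Cxcr3 (ENSMUSG00000034855, chromosome 5, 92346638 to 92348889), was the only chemokine among the members and had the lowest level of the 33 per kilobase, at 0.881 CPM per kb. It was at 1.45, 1.35 and 4.46 CPM in WT, 1.40 and 3.49 in Asxl1-/-, 2.19, 3.38 and 1.83 in Asxl1-/-Jak2V617F and 0.161, 1.37 and 0.738 in Jak2V617F. The lowest value rests on 3 counts, Jak2V617F 2 passed WT 2, and every Asxl1-/-Jak2V617F library exceeded every Jak2V617F library. It did not pass in Jak2V617F against WT (-1.65 ± 0.68, adjusted p = 0.0614; -0.87 ± 0.66 without WT 3) or between both Jak2V617F genotypes (1.68 ± 0.68, adjusted p = 0.0664), and passed in the second without WT 3 (adjusted p = 0.0407).

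Loss of Asxl1 in the WT background gave no call with all libraries and several without WT 3. In Asxl1-/- against WT, edgeR called 0 of the 33 members, with 0 at an unadjusted p under 0.05 and 0 by DESeq2, while 11.3% of all genes were higher and 11.2% lower. The member median was 0.02. Without WT 3, 10 members were higher in Asxl1-/- and 0 lower, against 6.3% of all genes higher, 21 had an unadjusted p under 0.05, and the member median was 0.89. With any other single library left out the count was 0.

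The 10 genes were the factors Irf7 (1.98 ± 0.43) and Irf9 (0.68 ± 0.16), the sensor Zbp1 (1.60 ± 0.46), Ifit3 (1.73 ± 0.48), Oas1a (1.77 ± 0.28), Oasl2 (1.71 ± 0.47), Usp18 (1.48 ± 0.35), Bst2 (1.46 ± 0.25), Ifi44 (2.35 ± 0.44) and Ifi47 (0.66 ± 0.18). All values are log2 fold changes ± SE without WT 3. With all libraries Irf7 was 0.57 ± 0.80 and Ifi44 0.46 ± 0.91. The Asxl1-/- libraries were male and the WT libraries female, and the labels name no batch. Macrophage markers moved along: the sum of 10 genes was 1219 and 2003 CPM in Asxl1-/-, 1282 CPM in WT 3 and 615 and 582 CPM in WT 1 and WT 2, and their part in the result was not tested.

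Adding the activated kinase to Asxl1 loss gave lower estimates that did not pass with all libraries. In Asxl1-/-Jak2V617F against Asxl1-/-, edgeR called 0 members, with 12 at an unadjusted p under 0.05 and 1 by DESeq2, while 5.53% of all genes were called in either direction and 2.22% lower. The member median was -1.16 and the all-gene median 0. For 25 members all 3 Asxl1-/-Jak2V617F libraries were below both Asxl1-/- libraries, against 22.8% of all genes. The 8 exceptions were Ifih1, Ifit2, Mx1, Igtp, Gbp2, Gbp3, Gbp7 and Cxcl10. WT 3 is in neither group and enters through the shared filter, scaling, spread and p adjustment. Without WT 3, 10 members were lower, against 2.04% of all genes: Irf7 (-2.24 ± 0.38), Irf9 (-0.90 ± 0.15), Ddx58 (-0.94 ± 0.23), Dhx58 (-1.26 ± 0.22), Ifit3 (-2.42 ± 0.44), Oas1a (-1.37 ± 0.25), Usp18 (-1.87 ± 0.31), Bst2 (-1.06 ± 0.22), Ifi44 (-2.54 ± 0.39) and Irgm1 (-0.76 ± 0.18). In a fit of both groups alone 12 passed, all lower, while 4.96% of all genes were called and 2.49% were lower. The macrophage marker sum was 123 to 187 CPM in Asxl1-/-Jak2V617F against 1219 and 2003 CPM in Asxl1-/-, and 9 of its 10 genes were lower. Sex also differed between both groups. With a sex term in the fit 0 members were called, with 0 at an unadjusted p under 0.05, and 0.32% of all genes were called. The member median was then -0.76. That term rests on Jak2V617F, the only group with both sexes. The part of the macrophage markers in the result was not tested, and sex and genotype cannot be told apart between these groups.

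Against WT, the double mutant differed in 1 member. Stat2 was lower in Asxl1-/-Jak2V617F than in WT (-0.74 ± 0.19, adjusted p = 0.0299), while 6.76% of all genes were lower and 8.3% higher. The member median was -0.97, and -0.09 without WT 3. All 3 Asxl1-/-Jak2V617F libraries were below all 3 WT libraries for Stat2, Ddx58, Dhx58, Ifit3 and Mx1. The share of all genes with that pattern is not given here, so these genes are only named. The Stat2 difference did not hold without Asxl1-/-Jak2V617F 1 (adjusted p = 0.0851), Asxl1-/-Jak2V617F 2 (0.0901), Asxl1-/-Jak2V617F 3 (0.0566), WT 2 (0.0663) or WT 3 (-0.47 ± 0.15, adjusted p = 0.0849). Its call was also lost with no filter and with the compared groups alone. Without WT 3 no member passed. Without Asxl1-/-Jak2V617F 3, Gbp3 was higher in Asxl1-/-Jak2V617F than in WT (adjusted p = 0.0296; 0.51 ± 0.20, adjusted p = 0.102 with all libraries). Without WT 1 the number called was 5, all lower, while 7.92% of all genes were lower.

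**Figure D4:**
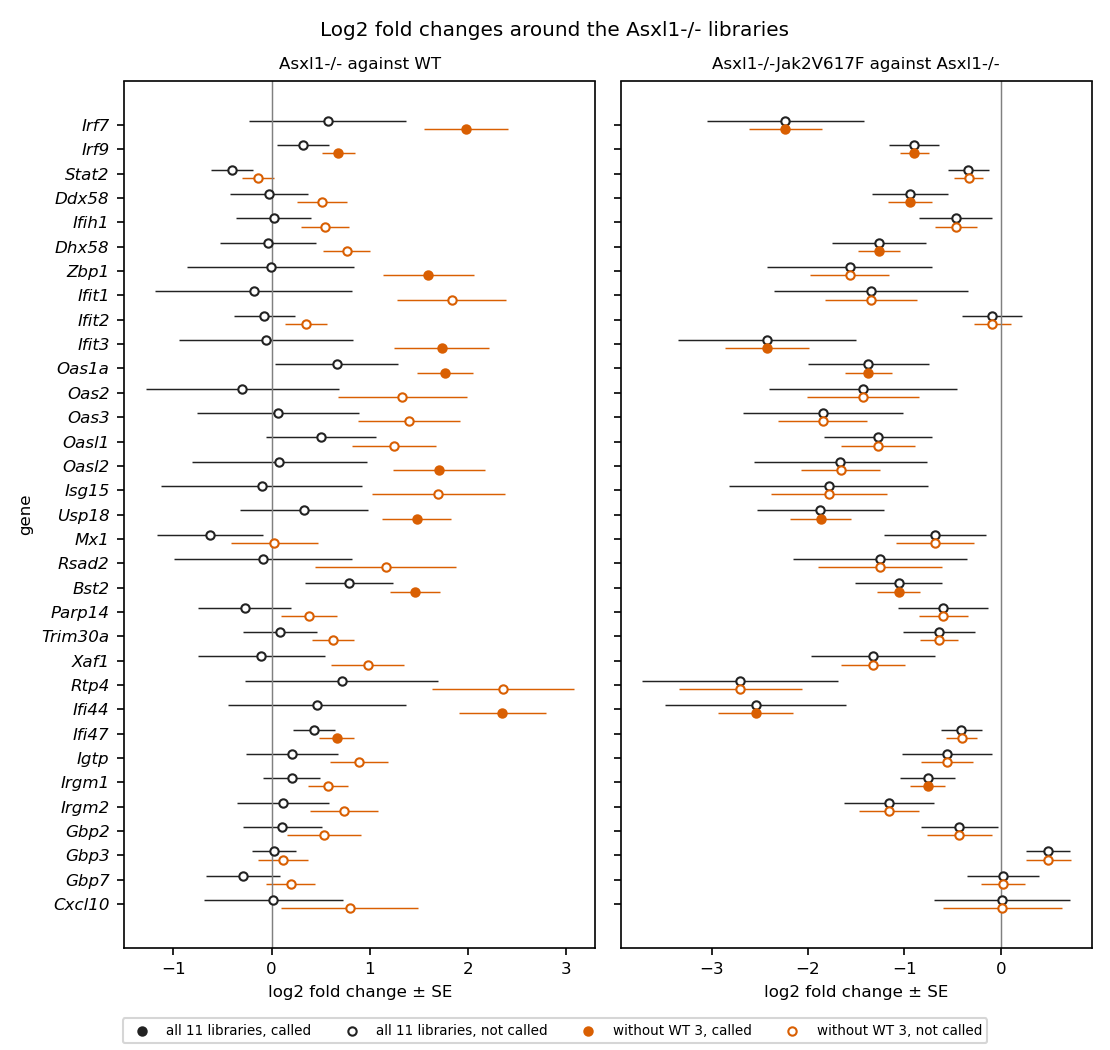
Log2 fold change ± SE (horizontal axes) of the 33 genes (vertical axis) in Asxl1-/- against WT, left, and in Asxl1-/-Jak2V617F against Asxl1-/-, right, with all 11 libraries (black) and without WT 3 (orange), filled where the gene passed. No gene passed with all libraries in either comparison, and without WT 3 10 genes were higher on the left and 10 lower on the right.

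Whether the effect of Asxl1 loss differed between the Jak2V617F and WT backgrounds was tested as an interaction. It passed for 2 members, both with a larger value in the Jak2V617F background, against 23.7% of all genes called in that direction and 17.9% in the other. Gbp3 rose by 2.34 ± 0.21 with Asxl1 loss in the Jak2V617F background and was 0.02 ± 0.23 in the WT background, a difference of 2.32 ± 0.31 (adjusted p = 0.000283). Ifit2 rose by 1.14 ± 0.28 and was -0.08 ± 0.31, a difference of 1.21 ± 0.42 (adjusted p = 0.042). Without WT 3 Ifit2 was 0.35 ± 0.21 in the WT background and the difference was 0.79 ± 0.28 (adjusted p = 0.0454). The Ifit2 result did not hold without Asxl1-/-Jak2V617F 1 (adjusted p = 0.0673), Asxl1-/-Jak2V617F 2 (0.0759), Asxl1-/-Jak2V617F 3 (0.0724), Jak2V617F 1 (0.089) or Jak2V617F 2 (0.0826). Nor did it hold without Asxl1-/- 1, which leaves 1 library in that group, with no filter or with a sex term (adjusted p = 0.315).

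Without WT 3 the interaction passed for 2 members in that direction, against 21.2% of all genes, and for 4 in the other, against 15.3%. The 4 were Irf7 (-1.67 ± 0.55), Irf9 (-1.0 ± 0.21), Usp18 (-1.99 ± 0.45) and Bst2 (-1.04 ± 0.32), none of which was called in Asxl1-/-Jak2V617F against Jak2V617F in the same fit. The limit of sex in the WT background holds for these values too.

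The rest of the pathway was read from lists of other genes. Of 21 type I, II and III interferon genes, 16 were at 0 in every library, no gene exceeded 4 counts in any library, and their sum was 0 to 9 counts per library, so none could be tested. A count of 0 allows up to 3 counts, or 0.156 to 0.185 CPM, which covers counting error only. In Jak2V617F against WT the counts of the tested lists stand beside 29.2% of all genes lower and 24.4% higher, and those of 5 of 12 and 6 of 14 are not far above the share lower. Of 9 interferon receptor and kinase genes, 5 fell and 2 rose in Jak2V617F against WT. The lambda receptor chain Ifnlr1 (-2.90 ± 0.30) and the type I chain Ifnar1 (-0.51 ± 0.12) were lower, and Jak1 (0.48 ± 0.10) and Jak2 (0.71 ± 0.08) higher. Of 12 other STAT and IRF factors 5 fell, among them Stat4 (-2.14 ± 0.22), Stat3 (-1.14 ± 0.14) and Irf1 (-1.40 ± 0.24), and 1 rose, Stat5a (0.73 ± 0.12).

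Of 16 upstream sensors, adaptors and kinases 10 fell, such as the IRF kinase Ikbke (-2.69 ± 0.14), the DNA sensor cGAS, Mb21d1 (-1.24 ± 0.18), and the endotoxin receptor Tlr4 (-2.51 ± 0.35). Another 3 rose, among them the double-stranded RNA receptor Tlr3 (2.64 ± 0.31). Of 14 negative regulators 6 fell, including the STAT inhibitor Pias3 (-1.31 ± 0.13) and the phosphatases Ptpn6 (-0.88 ± 0.10) and Ptpn1 (-0.45 ± 0.10), and 1 rose. Of 91 other interferon-inducible genes 50 fell and 7 rose in Jak2V617F against WT, and without WT 3 39 of 90 fell and 7 rose. The nuclear body protein Sp110 (-1.59 ± 0.14) and the Schlafen genes Slfn2 (-2.24 ± 0.22) and Slfn9 (-2.42 ± 0.25) fell, and the DNA-binding Ifi205 (2.43 ± 0.25) rose.

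The same lists were read in the other comparisons. In Asxl1-/-Jak2V617F against Jak2V617F, 26 of the 91 inducible genes rose and 9 fell, near the 24.5% of all genes higher, and without WT 3 39 of 90 rose and 11 fell. Of 9 receptor and kinase genes 5 rose and 2 fell, of 12 factors 4 rose and 2 fell, of 16 upstream genes 8 rose and 2 fell, and of 14 negative regulators 5 rose and 0 fell. In Asxl1-/- against WT, 4 of the 91 rose and 1 fell, against 11.3% of all genes higher and 11.2% lower. Without WT 3 24 of 90 rose and 0 fell, against 6.3% of all genes higher. In Asxl1-/-Jak2V617F against Asxl1-/-, 0 rose and 3 fell, against 2.22% of all genes lower. Without WT 3 0 rose and 22 fell, against 2.04% lower. In Asxl1-/-Jak2V617F against WT, 2 rose and 8 fell, against 8.3% of all genes higher and 6.76% lower. With 1 library left out, the genes that fell there numbered between 1 (without Asxl1-/-Jak2V617F 1) and 25 (without WT 1). In these fits 2.2% and 7.92% of all genes were lower. WT 3 stood at a median of 1.82 times the mean of WT 1 and WT 2 over the 91 genes.

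Cell type markers moved with genotype, and their part in the differences above was not tested. The summed level of 10 monocyte markers was 409 to 879 CPM in Jak2V617F and 4209 to 8057 CPM in the other libraries, and 9 of the 10 fell in Jak2V617F against WT. The sum of 10 macrophage markers was 57.8 to 244 CPM in Jak2V617F and 123 to 187 CPM in Asxl1-/-Jak2V617F, against 582 to 2003 CPM in WT and Asxl1-/-, and 9 of the 10 fell in Jak2V617F against WT and in Asxl1-/-Jak2V617F against WT. The 12 conventional dendritic cell markers summed to 2742 to 3738 CPM in Jak2V617F and 265 to 542 CPM elsewhere, and all 12 rose in Jak2V617F against WT. The sum of 10 plasmacytoid dendritic cell markers, of a cell type known for making type I interferon, lay between 101 and 208 CPM in all libraries, with 3 of 9 tested lower in Jak2V617F than in WT. The sum of 10 neutrophil granule markers was 2549 to 5597 CPM in Jak2V617F and 40462 to 67932 CPM elsewhere, and all 10 fell in Jak2V617F against WT. None of these markers was at 0 in all libraries. Erythroid markers summed to 5961 to 7512 CPM in Jak2V617F and 1496 to 3439 CPM elsewhere.

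**Figure D5:**
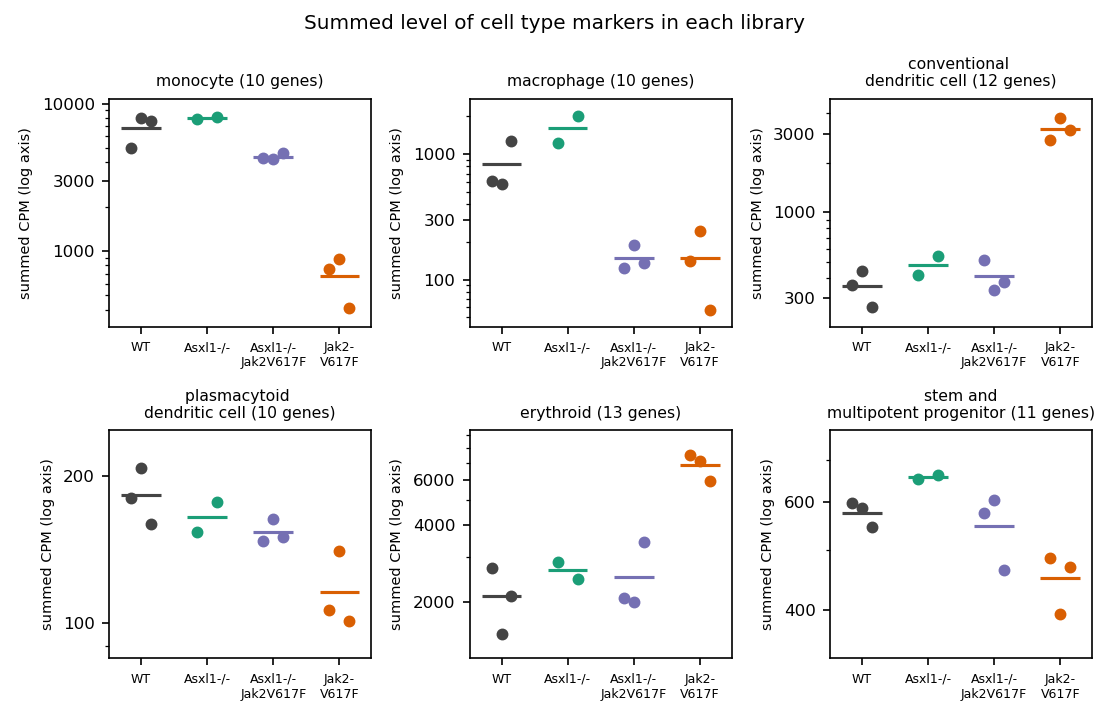
Summed CPM on a log axis of 6 lists of cell type markers in each library, with 1 point per library and a bar at the group mean. Monocyte markers are lowest and conventional dendritic cell and erythroid markers highest in Jak2V617F, and macrophage markers are below 250 CPM in both Jak2V617F genotypes.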

How the data were processed

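The c-kit+ marrow cells of 4 genotypes were profiled by RNA-seq. The deposited table holds raw read counts per Ensembl gene for 11 libraries, made by the authors, with gene coordinates and lengths. HISAT2 2.0.5, featureCounts 1.5.0-p3, DESeq2 1.16.1 and mm10 are named, without roles, per the submitters' processing notes. Not given in the sources used here are strand setting, annotation release and treatment of reads with several matches, so counts of paralogs and of overlapping or antisense genes are uncertain. Chromatin samples of the series were not used here.

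Genes were filtered with filterByExpr by group (16262 left), scaled by TMM and tested by the robust quasi-likelihood method of edgeR 4.0.16 under R 4.3.3, in 1 fit of all 11 libraries with a genotype factor. A gene is called higher or lower where its Benjamini-Hochberg adjusted p, taken over the 16262 genes, is under 0.05. The SE is the absolute log2 fold change over the square root of F. CPM per kb divides by the deposited gene length. The 5 comparisons and the interaction are contrasts of this fit and share libraries. It was first tested on simulated data with known answers. Within groups, chi-square over genes between any 2 libraries was 5.67 to 23.4 per degree of freedom, above sampling noise, and none were merged.

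The members, marker lists and pathway lists were chosen with earlier results of these data known. Values in every library are given, per role, for up to 3 members with the smallest adjusted p in Jak2V617F against WT and for members called in the interaction or in Asxl1-/- against WT. Of each pathway list up to 4 genes with the smallest adjusted p are named. Alternatives were median-of-ratios scaling, DESeq2 1.42.0, no filter, a stricter filter (CPM of 1 in 3 libraries), the compared groups alone, the replicate number as a block, a sex term and leaving out each library. Promoter windows are RefSeq's (GRCm38.p6), and motifs were searched as exact letters.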

Additional observations from a re-analysis of the deposited data

Results flagged for a closer look

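Asxl1 loss had a different effect in the Jak2V617F background than in the WT background for 2 of the 33 genes, by the interaction test. Of all genes, 23.7% were called higher and 17.9% lower in it. In the WT background the Asxl1-/- libraries were male and the WT libraries female, so sex and Asxl1 loss cannot be told apart there. With a sex term 18.9% of all genes were called in the interaction, against 41.6% as reported. For Gbp3 the difference of the log2 effects was 2.32, with 3 of 3 Asxl1-/-Jak2V617F libraries above all Jak2V617F libraries and the Asxl1-/- libraries within the WT range. It passed in all 17 alternatives, with values from 1.83 to 2.5. For Ifit2 the difference was 1.21, with 3 of 3 Asxl1-/-Jak2V617F libraries above all Jak2V617F libraries. Both Asxl1-/- libraries lay within the WT range, whose upper end was WT 3 (58.3 CPM). Asxl1-/- 2 (45.2 CPM) was above WT 1 and WT 2. The Ifit2 difference passed in 9 of 17 alternatives, with values from 0.79 to 1.60. No group has the 4 samples needed to test for a single extreme library.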

How the results depend on the processing

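The number of members called was recomputed under each alternative. In Jak2V617F against WT it was 20 as reported, 16 to 22 with 1 library left out, 19 by DESeq2 and 17 with no filter. The share of all genes lower was 29.2%, 25.8% to 30.1%, 27.7% and 16.2%, in the same order. For Asxl1-/-Jak2V617F against Jak2V617F the 7 became 11 by DESeq2, 4 with no filter, 13 with the compared groups alone and 3 to 17 with 1 library left out (3 without Asxl1-/-Jak2V617F 2 or Jak2V617F 1, 4 without Asxl1-/-Jak2V617F 3 or Jak2V617F 3 and 17 without WT 3). The share of all genes higher was 24.5% as reported and 24.1% by DESeq2. It was 13.1% with no filter, 23.9% with the compared groups alone and 21.2% to 24.5% with 1 library left out. In Asxl1-/- against WT the 0 became 10 without WT 3 and was 0 without any other library. Of all genes 11.3% were higher in Asxl1-/- against WT as reported and 6.3% without WT 3. For Asxl1-/-Jak2V617F against WT the 1 became 5 by DESeq2, 0 with no filter, 0 with the compared groups alone and 0 to 5 with 1 library left out. The share of all genes called there was 15.1% as reported, 22.7% by DESeq2 and 7.54% with no filter. It was 11.8% with the compared groups alone and 3.3% to 21.6% with 1 library left out. For Asxl1-/-Jak2V617F against Asxl1-/- the 0 became 1 by DESeq2, 12 with the compared groups alone and 0 to 10 with 1 library left out. Of all genes 5.53% were called as reported, 9.03% by DESeq2, 4.96% with the compared groups alone and 4.53% without WT 3. The 2 of the interaction became 1 with no filter, 1 with a sex term and 1 to 6 with 1 library left out. Of all genes 41.6% were called in it as reported, 20.9% with no filter, 18.9% with a sex term and 36.5% without WT 3. DESeq2 gave an adjusted p to 29 of the 33 members. Of single genes, Gbp3, Ifi47 and Ifit2 passed in both Jak2V617F comparisons in 18 of 18 alternatives. No called value changed sign, while Zbp1 and Ifit3 in Asxl1-/- against WT moved from -0.01 ± 0.85 and -0.06 ± 0.89 to 1.60 ± 0.46 and 1.73 ± 0.48 without WT 3. The cause was not tested.

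Whether the replicate numbers pair the libraries cannot be told from 2 to 3 libraries a group. Over all genes tested, correlations of deviations from the group means were -0.25 to 0.24 for the 15 pairs of equal number and -0.277 to 0.279 for the 30 others. The median member deviation was lowest in replicate 1 of each genotype (Asxl1-/-Jak2V617F -0.60, Jak2V617F -1.33, Asxl1-/- 0.65 and WT -0.11). In Asxl1-/- against WT the member median was 0.46 with the replicate block and 0.02 without it. With the replicate block the counts were 10 in Asxl1-/-Jak2V617F against Jak2V617F, 24 in Jak2V617F against WT, 0 in Asxl1-/- against WT, 2 in Asxl1-/-Jak2V617F against WT, 1 in Asxl1-/-Jak2V617F against Asxl1-/- and 2 in the interaction. The shares of all genes called were 43.7%, 53.4%, 20.9%, 15.2%, 3.6% and 40.2%, in the same order. With 2 to 3 libraries a group, and WT 3 far from the other WT libraries, a difference that did not pass may be absent or too small to pass. The smallest difference that could pass at this spread was not worked out. Depth limits the lowest members, Cxcl10 and Ifit1, in Jak2V617F.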
